A study of Homo sapiens with 9 samples.

Results

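CEACAM5 and CEACAM1 encode members of the carcinoembryonic antigen family, cell-surface glycoproteins of the immunoglobulin superfamily that bind one another between neighbouring cells. CEACAM5 is carcinoembryonic antigen itself: it is held in the membrane by a glycosylphosphatidylinositol (GPI) lipid anchor, sits on the luminal face of colon epithelium, is abundant in most colorectal carcinomas and is shed into blood, where it is followed as a tumour marker. CEACAM1 spans the membrane, and its long form carries a cytoplasmic tail with inhibitory tyrosine motifs that recruit phosphatases and dampen growth factor and immune receptor signalling.

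The 2 genes were taken as the rows of the deposited expression table whose platform annotation carries the symbol CEACAM5 or CEACAM1. Each had 1 row, so they are 2 of 14884 named genes, and both were among the 11163 genes kept for testing. They were chosen by their measured levels in the 3 groups, so those levels and differences below are a description and carry no test. RNA came from HT-29 cells, an established human colon adenocarcinoma line, and was hybridised to Affymetrix whole-transcript gene arrays. The 9 arrays form 3 groups of 3, called biological replicates in the design text without naming separate cultures: cells given rosemary extract, cells given carnosic acid (a phenolic diterpene of rosemary), and cells labelled untreated, which received vehicle. Every group was collected after 24 h. No source used here gives the concentrations, so doses could not be matched between the treatments.

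CEACAM5 was far higher in both treatments than in untreated cells, whereas CEACAM1 lay lower with the extract and higher with carnosic acid. Both genes lie on chromosome 19 within one cluster. The sequences before their starts, with that of their relative CEACAM6, are shown because CEACAM5 and CEACAM6 were higher in both treatments and CEACAM1 was not. These are the 250 bases before each annotated gene start in RefSeq GRCh38.p14, written 5′ to 3′ on the gene's own strand: CEACAM5 at chr19:41708376-41708625 (plus strand), CEACAM1 at chr19:42528482-42528731 (minus strand) and CEACAM6 at chr19:41755280-41755529 (plus strand). Capitals mark matches to motifs searched on both strands.
CEACAM5: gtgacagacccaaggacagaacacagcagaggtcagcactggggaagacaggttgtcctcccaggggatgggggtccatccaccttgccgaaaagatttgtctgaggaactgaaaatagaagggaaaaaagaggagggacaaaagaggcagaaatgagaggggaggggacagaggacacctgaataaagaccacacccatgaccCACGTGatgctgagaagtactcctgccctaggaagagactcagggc
CEACAM1: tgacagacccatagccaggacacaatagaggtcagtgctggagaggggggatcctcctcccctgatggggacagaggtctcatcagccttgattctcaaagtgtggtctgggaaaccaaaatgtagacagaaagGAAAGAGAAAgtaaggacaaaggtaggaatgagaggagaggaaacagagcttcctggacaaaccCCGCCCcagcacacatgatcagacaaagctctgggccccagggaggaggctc
CEACAM6: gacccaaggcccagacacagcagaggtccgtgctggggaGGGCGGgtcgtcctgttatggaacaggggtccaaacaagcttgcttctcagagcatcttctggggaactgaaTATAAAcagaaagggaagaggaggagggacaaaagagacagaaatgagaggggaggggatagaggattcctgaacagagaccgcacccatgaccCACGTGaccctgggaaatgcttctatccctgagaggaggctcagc

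The motifs were chosen after the CEACAM5 and CEACAM1 sequences had been seen. An E-box, CACGTG, the site of basic helix-loop-helix leucine zipper factors such as the USF proteins, began 46 bases before the CEACAM5 start and 45 bases before the CEACAM6 start. The CEACAM1 window held 0 matches to it, and 6.34% of 35116 RefSeq promoter windows of this length held at least 1. The GC box of SP factors, GGGCGG, matched once in CEACAM1 (on the opposite strand, starting 52 bases before the start) and once in CEACAM6, with 0 matches in CEACAM5, against 42.6% of all windows. The core of an interferon regulatory factor element, GAAA and GAAA parted by NN, matched once in CEACAM1, with 0 matches in CEACAM5 and in CEACAM6, against 3.02% of windows. TATAAA matched once, in CEACAM6, against 10.7% of windows. The antioxidant response element core TGACNNNGC (10.9% of windows) and the C/EBP-ATF composite core TGATGNAA (3.14%) had 0 matches in all 3 windows. No match overlapped another. When aligned in pairs, CEACAM5 and CEACAM6 were identical at 78.1% of 242 paired bases, CEACAM1 and CEACAM5 at 72.0% of 236, and CEACAM1 and CEACAM6 at 74.4% of 238. CEACAM7, which did not pass in either treatment, was closer still: it was identical to CEACAM5 at 84.0% of 244 paired bases and to CEACAM6 at 80.2% of 248. Its signal was low, however, close to the level (log2 4.50) below which genes were left out as dim. CEACAM3, which also did not pass, was identical to CEACAM6 at 81.2% of 229. Matches were read gene by gene only for the 3 windows shown, so whether CEACAM7 or CEACAM3 holds the E-box is not given. The E-box therefore cannot be said to set apart the genes that were higher. A match describes these letters and is no evidence of binding.

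CEACAM5 had RMA expression values (normalized array signal on a log2 scale) of 10.17, 9.95 and 9.90 with rosemary extract, 9.68, 9.34 and 9.19 with carnosic acid, and 7.68, 6.88 and 7.0 in untreated cells. The 3 groups did not overlap, and their order was extract, carnosic acid, untreated. Means were 10.01 ± 0.14 with the extract, 9.40 ± 0.25 with carnosic acid and 7.19 ± 0.43 in untreated cells (SD, n = 3 each).

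With the extract the CEACAM5 mean was 2.82 ± 0.19 (SE of the limma fit, log2) above the untreated mean, a 7.05-fold difference. This was the 12th highest difference among the 11163 genes. With carnosic acid it was 2.22 ± 0.19 above, or 4.65-fold, the highest of all the genes tested. The closest pair of arrays was still 2.22 apart between extract and untreated cells and 1.51 apart between carnosic acid and untreated cells. Groups lay apart with the treated one higher for 25% of the genes tested with the extract and for 19.7% with carnosic acid. Both comparisons share the untreated arrays.

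The 2 treatments were closer to each other. CEACAM5 was 0.60 ± 0.19 (SE, log2) higher with the extract than with carnosic acid, or 1.52-fold, ranking 183rd from the highest. The gap between the lowest extract array and the highest carnosic acid array was 0.21, less than the SD of the carnosic acid arrays. Of all genes, 16.2% lay apart in this direction.

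CEACAM5 varied more between replicates than most genes. Its pooled within-group SD was 0.300 log2 units, above that of 98.3% of the genes tested, whose median was 0.114. The array numbered 1 was the highest in every group, by most in untreated cells, where the 3 arrays spanned 0.797. No culture day or batch is labelled, and the part of a shared one was not tested.

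CEACAM1 had values of 8.28, 8.41 and 8.45 with the extract, 8.95, 8.94 and 9.12 with carnosic acid, and 8.61, 8.65 and 8.82 in untreated cells. Again no groups overlapped, but the order differed: carnosic acid was highest, untreated cells were between, and the extract was lowest. Group means were 8.38 ± 0.09 with the extract, 9.0 ± 0.10 with carnosic acid and 8.70 ± 0.11 in untreated cells (SD, n = 3 each).

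Relative to untreated cells, the CEACAM1 mean was -0.31 ± 0.08 (SE, log2) with the extract, 0.804 of the untreated level, ranking 1503rd from the lowest. With carnosic acid the difference was 0.31 ± 0.08, or 1.24-fold, ranking 1296th from the highest. The gaps between groups were small, 0.16 for the extract and 0.11 for carnosic acid, each close to a replicate SD. Groups lay apart with the extract lower for 21.7% of genes, and with carnosic acid lower for 13.1% and higher for the 19.7% given above.

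The direct difference between treatments was larger for CEACAM1 than either difference from untreated cells. The extract mean was -0.62 ± 0.08 (SE, log2) relative to the carnosic acid mean, or 0.649 of it, ranking 355th from the lowest. The closest arrays were 0.48 apart. For 15.6% of genes the extract arrays all lay below the carnosic acid arrays.

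CEACAM1 was no more variable than the typical gene, with a pooled within-group SD of 0.103, above 42.6% of genes. Its highest array was number 3 in every group, whereas that of CEACAM5 was number 1. The row covers the gene as a whole and does not separate the long-tailed from the short-tailed CEACAM1 form.

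**Figure D1:**
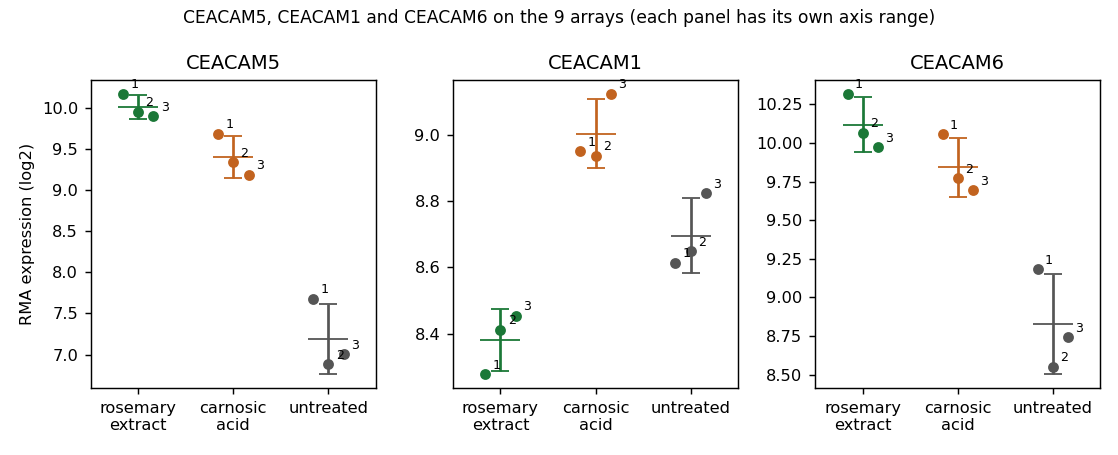
Log2 RMA expression of CEACAM5, CEACAM1 and CEACAM6 on each array (points, numbered by replicate) with the group mean and SD (bars), n = 3 per group; each panel has its own axis range. CEACAM5 sits between 9.19 and 10.17 in treated cells and between 6.88 and 7.68 in untreated cells, while CEACAM1 is lowest with the extract and highest with carnosic acid.

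CEACAM6, a GPI-anchored relative whose gene lies next to CEACAM5, was not used to choose the genes and could be tested. It read 10.32, 10.07 and 9.97 with the extract, 10.06, 9.77 and 9.70 with carnosic acid, and 9.18, 8.55 and 8.74 in untreated cells. All treated arrays lay above all untreated arrays, and the 2 treatments overlapped. CEACAM6 rose by 1.29 ± 0.15 (SE, log2) with the extract, 2.45-fold (limma adjusted p = 3.39e-05), and by 1.02 ± 0.15 with carnosic acid, 2.02-fold (limma adjusted p = 0.000769). Over 14 alternative settings the highest adjusted p was 0.00033 for the extract and 0.0051 for carnosic acid. Between the treatments it differed by 0.28 ± 0.15 (95% interval -0.054 to 0.606, limma adjusted p = 0.272), which did not pass; 8.24% of genes passed as higher and 9.07% as lower in that comparison (17.3% in all). Like CEACAM5, it was highest on array 1 of every group. The 2 transcripts are similar in sequence, and cross-hybridisation between their rows was not tested.

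Of 12 CEACAM genes listed, 11 were named on the array, and 8 were above the limit for dim genes (log2 4.50), which leaves 6 besides the 2 described here. CEACAM6 was the only 1 of the 6 to pass in either treatment (adjusted p under 0.05), and 0 fell. Of all genes tested, 21.8% rose and 16.3% fell with the extract (38.1% in all), and 12.9% rose and 6.12% fell with carnosic acid (19.0% in all). The median difference of the 6 was 0.07 in each treatment, against -0.018 over all genes with the extract and -0.011 with carnosic acid.

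CEACAM7, a GPI-anchored protein of mature colonocytes and the other neighbour of CEACAM5, differed from untreated cells by 0.17 ± 0.10 with the extract (limma adjusted p = 0.21) and 0.11 ± 0.10 with carnosic acid (limma adjusted p = 0.475). Its means were 4.67 with the extract, 4.62 with carnosic acid and 4.50 in untreated cells, the last at the dim limit. CEACAM3, a granulocyte receptor, differed by -0.09 and 0.03. CEACAM16, a protein of the inner ear, differed by -0.23 and -0.06. None of these passed.

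CEACAM19 differed by 0.21 ± 0.09 with the extract (limma adjusted p = 0.0792) and 0.11 with carnosic acid, and the same value, 6.08, recurred on 4 arrays. CEACAM20 differed by -0.04 with the extract and -0.32 ± 0.11 with carnosic acid (limma adjusted p = 0.0604), the second difference passing when only the 6 arrays compared were fitted (adjusted p = 0.0377). CEACAM4, CEACAM8 and CEACAM21 were dim and were not tested. CEACAM8, a granulocyte surface marker, lay between 3.21 and 3.56 with the extract, 3.27 and 3.86 with carnosic acid, and 3.14 and 3.35 in untreated cells.

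The pregnancy-specific glycoproteins are the secreted, placental branch of the same family. All 10 listed PSG genes were named and 3 were tested. PSG4 was 0.51 ± 0.18 lower with the extract (-0.51, limma adjusted p = 0.0447), a call lost in 8 of the alternative settings in which it was tested. Its difference with carnosic acid was -0.41 ± 0.18 (limma adjusted p = 0.139). PSG6 and PSG9 did not pass in either treatment. PSG5 was dim and was not tested, with means of 4.36 with the extract, 4.45 with carnosic acid and 3.61 in untreated cells. These means lay under the dim limit of 4.50, although in both treatments all treated arrays lay above all untreated arrays. Groups lay apart in that direction for 25% of the genes tested with the extract and for 19.7% with carnosic acid.

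**Figure D2:**
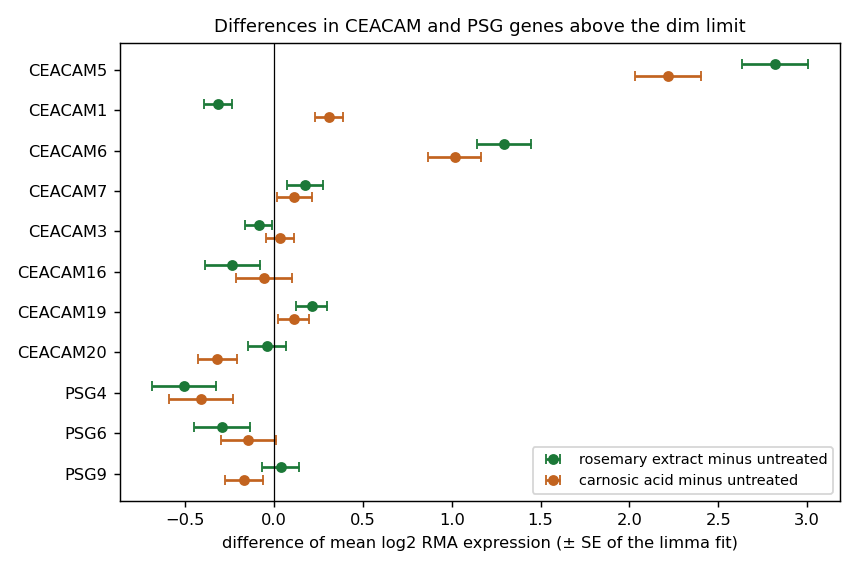
Difference of mean log2 RMA expression from untreated cells, with the SE of the limma fit, for the CEACAM and PSG genes above the dim limit (green, rosemary extract; orange, carnosic acid; n = 3 arrays per group). CEACAM5 and CEACAM6 stand to the right in both treatments and CEACAM1 has opposite signs; the CEACAM5 and CEACAM1 values are descriptive.

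The stretch of chromosome 19 between CEACAM5 and CEACAM1 holds 25 annotated protein-coding genes, 16 of them tested. With each treatment 4 of the 16 rose and 2 fell, CEACAM6 among those that rose, numbers near the shares of all genes with the extract (21.8% and 16.3%) and, with carnosic acid, beside 12.9% and 6.12%. Their median difference was -0.033 with the extract and 0.042 with carnosic acid. RPS19, a small ribosomal subunit protein near CEACAM5, fell by 0.49 with the extract (limma adjusted p = 2.3e-05) and fell by 0.27 with carnosic acid (limma adjusted p = 0.0052).

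CXCL17, a mucosal chemokine gene next to CEACAM1, fell by 0.61 with the extract (limma adjusted p = 0.0052) and fell by 0.46 with carnosic acid (limma adjusted p = 0.0426), the second call being lost in 6 of 14 alternative settings. Of the other tested genes within 5 places of CEACAM5 or CEACAM1, DMAC2, DMRTC2, TMEM145 and CNFN did not pass in either treatment. CEACAM5 thus lay among neighbours that rose, fell or did not pass.

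**Figure D3:**
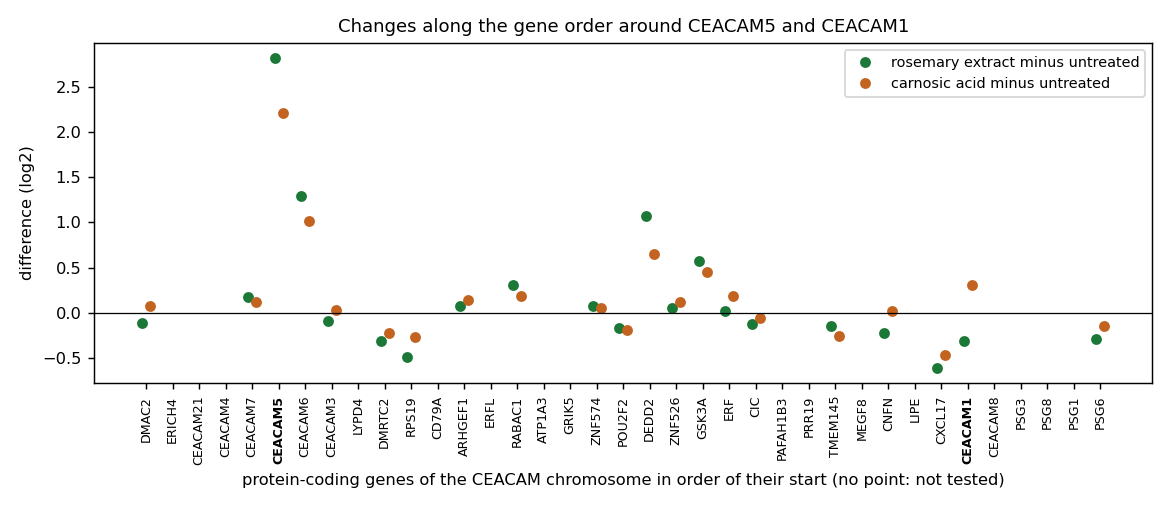
Difference from untreated cells (log2) for protein-coding genes of chromosome 19 in the order of their starts, with CEACAM5 and CEACAM1 in bold and no point for genes not tested (green, rosemary extract; orange, carnosic acid). Within each treatment CEACAM5 and CEACAM6 are the highest points, at 2.82 and 1.29 with the extract. DEDD2, named here after its values were seen, is next, at 1.07 with the extract and 0.66 with carnosic acid.

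The genes with the profile nearest to each member were found by the root mean square (RMS) difference over the 9 arrays, after centring each gene on its own mean. They were picked for likeness, so their values are descriptive. Nearest to CEACAM5 were ABHD4, a lipid hydrolase gene (RMS 0.261), the non-coding APCDD1L-DT (0.306), GPAT3, an acyltransferase of glycerolipid synthesis (0.311), EPAS1, a hypoxia-inducible transcription factor subunit (0.314), and SPP1, the secreted phosphoprotein osteopontin (0.318). ABHD4 was 3.05 above untreated cells with the extract and 2.11 with carnosic acid (log2). EPAS1 was 2.24 and 1.67 above. CEACAM6 ranked 84th in likeness to CEACAM5 (RMS 0.659), and CEACAM1 8618th (1.32). The RMS was not scaled for the size of change, so a gene with a like shape but smaller differences ranks lower. CEACAM6 was 1.29 above untreated cells with the extract and 1.02 with carnosic acid, smaller differences than those of CEACAM5. Like CEACAM5, it was highest on array 1 of every group.

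Nearest to CEACAM1 were ICMT, which methylates prenylated proteins (RMS 0.0676), EPHB6, an Eph receptor without kinase activity (0.0712), CGAS, a cytosolic DNA sensor (0.0739), TRERF1, a zinc-finger regulator (0.0786), and RECQL, a DNA helicase (0.0824). EPHB6 differed from untreated cells by -0.29 with the extract and 0.36 with carnosic acid, the same order of groups as CEACAM1. CEACAM1 spanned a narrow range, so small RMS values there are reached more easily than for CEACAM5.

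**Figure D4:**
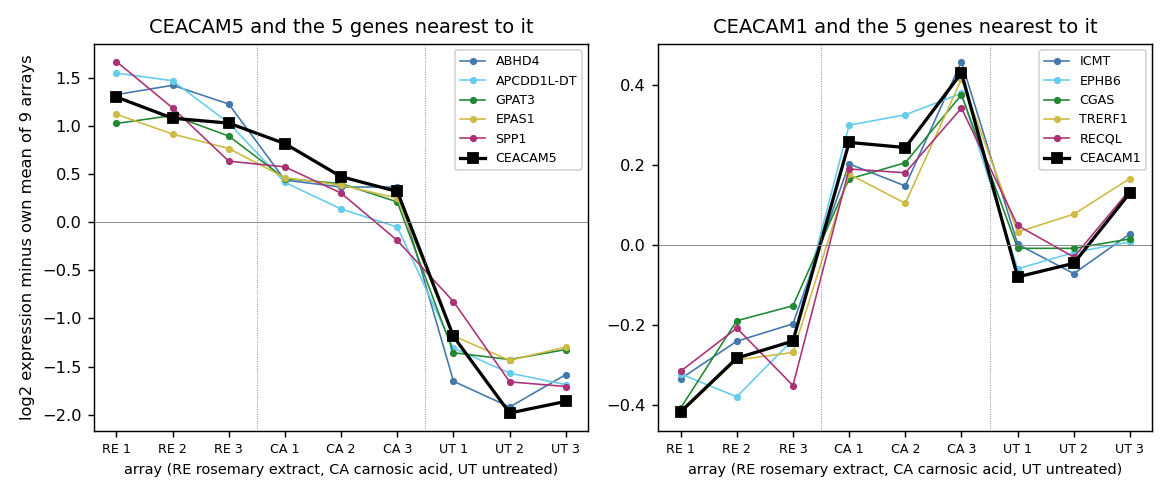
Log2 expression of CEACAM5 (left) and CEACAM1 (right), each minus its own mean of the 9 arrays, with the 5 genes nearest to it by RMS difference (RE rosemary extract, CA carnosic acid, UT untreated). The profiles near CEACAM5 step down from extract to carnosic acid to untreated, and those near CEACAM1 peak with carnosic acid.

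Transcription factors that have been linked to CEACAM genes were tested next: 15 of 20 listed. With the extract 3 rose and 2 fell, and with carnosic acid 5 rose and 0 fell, beside 21.8% and 16.3% of all genes with the extract and 12.9% and 6.12% with carnosic acid. USF1, of the class that binds the E-box found in CEACAM5 and CEACAM6, differed by -0.0049 with the extract (limma adjusted p = 0.968) and 0.05 with carnosic acid (limma adjusted p = 0.707), and did not pass. SMAD3, a TGF-beta signal transducer, rose by 0.49 ± 0.11 with the extract (limma adjusted p = 0.0037) and by 0.70 ± 0.11 with carnosic acid (limma adjusted p = 0.000983). SP4, a GC-box factor, read 7.03, 7.09 and 6.68 with the extract, 7.55, 7.55 and 7.88 with carnosic acid, and 7.84, 7.83 and 7.92 in untreated cells. Its extract arrays lay below all others, and it fell by 0.93 on the log2 scale with the extract (limma adjusted p = 6.88e-05), while its carnosic acid difference of -0.20 did not pass (limma adjusted p = 0.273).

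IRF1, an interferon-responsive factor of the class whose core element matched in the CEACAM1 window, read 7.38, 7.19 and 7.36 with the extract, 7.76, 7.55 and 7.65 with carnosic acid, and 7.08, 7.17 and 7.39 in untreated cells. Carnosic acid arrays lay above the rest, and the extract overlapped untreated cells. IRF1 rose by 0.44 ± 0.10 with carnosic acid (limma adjusted p = 0.0081); with the extract the difference was 0.10 ± 0.10 (limma adjusted p = 0.484). Between extract and carnosic acid it was -0.34 ± 0.10 (limma adjusted p = 0.0302), lost in 4 of 14 alternative settings. IRF2, of the same class as IRF1, differed by 0.06 with the extract (limma adjusted p = 0.514) and 0.13 with carnosic acid (limma adjusted p = 0.194). SP1, the general GC-box factor, rose by 0.34 ± 0.05 with carnosic acid (limma adjusted p = 0.000959) and differed by 0.11 ± 0.05 with the extract (limma adjusted p = 0.123). USF1 and IRF2 were added after their values were seen. Any link of these factors to CEACAM5 or CEACAM1 was not tested.

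Of 8 tested CEACAM1 signalling partners (of 18 listed), 2 rose in each treatment, and 1 fell with the extract and 0 with carnosic acid. All-gene shares were 21.8% higher and 16.3% lower with the extract, near these counts, and 12.9% and 6.12% with carnosic acid. SHC1, an adaptor of receptor tyrosine kinases, rose by 0.75 ± 0.07 with the extract (limma adjusted p = 5.62e-06) and 0.47 ± 0.07 with carnosic acid (limma adjusted p = 0.000792). EGFR, the epidermal growth factor receptor, rose by 0.23 and 0.34. TLR4, a receptor for bacterial lipopolysaccharide, fell by 0.44 with the extract (limma adjusted p = 0.0082) and differed by 0.04 with carnosic acid. SRC, a tyrosine kinase, differed by 0.13 and 0.17 and did not pass.

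Of 8 tested regulators of CEACAM1 splicing (all 8 listed), 6 fell and 1 rose with the extract, and 3 fell and 1 rose with carnosic acid, the carnosic acid count of falls ranging over 1 to 5 across the alternatives. Of all genes 16.3% fell and 21.8% rose with the extract, and 6.12% fell and 12.9% rose with carnosic acid. HNRNPL fell by 0.68 with the extract (limma adjusted p = 1.44e-06) and fell by 0.32 with carnosic acid (limma adjusted p = 0.0016). PTBP1 fell by 0.22 with the extract (limma adjusted p = 0.000788), and its carnosic acid difference was -0.02. Isoform use was not measured.

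HNRNPM, which is also a receptor for shed CEACAM5 on liver macrophages, fell by 0.29 with the extract (limma adjusted p = 0.00024) and fell by 0.19 with carnosic acid (limma adjusted p = 0.0113, lost in 2 of 14 alternatives). SRSF3 fell by 0.47 and 0.22, the carnosic acid call being lost in 6 of 14. Of 4 tested CEACAM5 binding partners, HNRNPM and CD1D, an antigen-presenting molecule, passed in both treatments, both lower, where 16.3% of all genes fell with the extract and 6.12% with carnosic acid. The CD1D differences were -0.47 with the extract (limma adjusted p = 0.0194) and -0.45 with carnosic acid (limma adjusted p = 0.0426). These calls were lost in 4 and 7 of the alternatives in which CD1D was tested. Its means were 4.51 with the extract, 4.52 with carnosic acid and 4.98 in untreated cells. Both treated means thus lay at the dim limit of 4.50. CD209 and CD8A did not pass.

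The machinery that attaches and trims GPI anchors, needed by CEACAM5 and CEACAM6 but not by CEACAM1, had 8 tested genes of 32 listed. With the extract 2 rose and 2 fell, and with carnosic acid 2 rose and 0 fell, against 38.1% of all genes called with the extract and 19.0% with carnosic acid, so nothing is read from the counts about the list. MPPE1, which remodels the anchor before export from the endoplasmic reticulum, rose by 0.63 ± 0.07 with the extract (limma adjusted p = 1.73e-05) and 0.45 ± 0.07 with carnosic acid (limma adjusted p = 0.000845). PGAP2, an anchor lipid remodelling protein, fell by 0.58 with the extract (limma adjusted p = 0.000583). PGAP6 rose by 0.17 in each treatment, but its carnosic acid call was lost in 9 of 14 alternatives and its extract call in 2. PGAP3 fell by 0.23 with the extract (limma adjusted p = 0.0394, lost in 7 of 14).

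Of 20 other GPI-anchored proteins tested, 5 rose and 4 fell with the extract, and 3 rose and 2 fell with carnosic acid (1 to 4 rose across alternatives). These shares lie near those of all genes, 21.8% and 16.3% with the extract and 12.9% and 6.12% with carnosic acid, so nothing is read from them about the list. ULBP1, a ligand of the NKG2D receptor, read 5.78, 6.61 and 6.26 with the extract, 4.48, 4.69 and 4.35 with carnosic acid, and 3.68, 3.60 and 3.92 in untreated cells, with no overlap. Its untreated arrays all lay under the dim limit of 4.50 and the carnosic acid mean, 4.51, lay at it, so the gene was kept for testing only through its extract level and no size of difference is given, although it is in the counts above. GPC3, counted as a fall with the extract, had means of 4.21 with the extract, 4.47 with carnosic acid and 4.85 in untreated cells. Both treated means lay under the dim limit, so GPC3 was kept only through its untreated level. CD24, a mucin-like adhesion protein, fell by 0.79 with the extract (limma adjusted p = 2.23e-06) and fell by 0.60 with carnosic acid (limma adjusted p = 0.000108). LYPD3 and PRNP rose with the extract, by 0.98 and 0.54, and did not pass with carnosic acid.

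**Figure D5:**
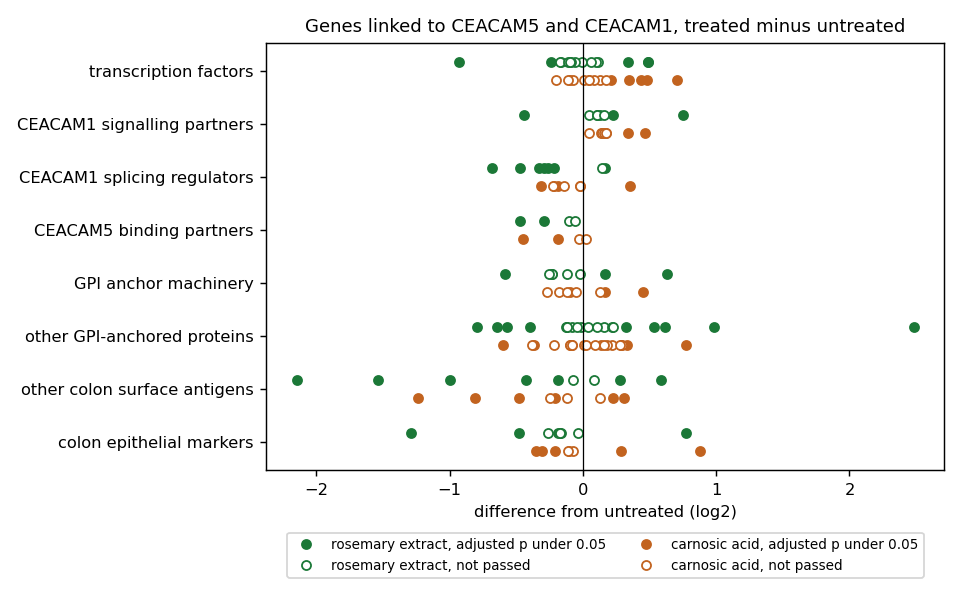
Difference from untreated cells (log2) for each tested gene in 8 lists linked to CEACAM5 and CEACAM1 (green, rosemary extract above; orange, carnosic acid below; filled points, limma adjusted p under 0.05). Splicing regulators lie mostly left of 0, and the GPI-anchored proteins lie on both sides.

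Markers of the labelled cell type were present. Of 11 colon epithelial markers 8 were named, and all 8 were above the dim limit, with KRT18 highest at 12.11 with the extract, 12.28 with carnosic acid and 12.59 in untreated cells. KRT20, a keratin of differentiated colon epithelium, rose by 0.77 ± 0.06 with the extract (limma adjusted p = 8.13e-07) and 0.88 ± 0.06 with carnosic acid (limma adjusted p = 2.58e-06). VIL1, the microvillus protein villin, fell by 1.29 with the extract (limma adjusted p = 1.52e-07) and fell by 0.35 with carnosic acid (limma adjusted p = 0.0068). EPCAM and KRT18 also fell in both. Of the 8 markers, 1 rose and 3 fell with the extract, and 2 rose and 3 fell with carnosic acid, beside 21.8% and 16.3% of all genes with the extract and 12.9% and 6.12% with carnosic acid. KRT19, named here after its values were seen, was the other that rose with carnosic acid, by 0.28 ± 0.06 (limma adjusted p = 0.0086), and KRT8, CDX1 and CDX2 did not pass in either treatment.

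Granulocytes and other leukocytes express CEACAM genes, so their markers were read too. Of 6 named granulocyte markers 3 were above the dim limit and 0 passed. Their summed linear signal was 233 to 253 with the extract, 214 to 250 with carnosic acid and 234 to 266 in untreated cells, so the groups overlapped. Of 8 leukocyte markers 2 were named, of which LYZ (lysozyme, also made by gut epithelium) fell by 0.26 with the extract (limma adjusted p = 0.000818), and CD14 did not pass. Of all genes tested, 38.1% were called with the extract (16.3% as lower) and 19.0% with carnosic acid. With so few markers tested, nothing is read from these counts about either list. In these bulk samples fewer cells of a type and less RNA per cell cannot be told apart.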

How the data were processed

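Expression was measured on 9 arrays. Per the labels, the authors made the deposited values with RMA in the oligo package, and their range shows a log2 scale. RMA corrects background, equalises arrays and compresses large differences, and it gives no detection call. Neither tool versions nor the authors' array annotation are named in the sources used here. Of 53617 rows, 16098 carried 1 gene symbol and 37519 none, and all 16098 Entrez identifiers matched RefSeq (GRCh38.p14). The row with the highest mean was kept for each of 14884 genes, and the lowest 25% (3721 genes) were left out as dim.

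Group means were fitted to all 9 arrays with limma 3.58.1 in R 4.3.3 (lmFit, eBayes with a trend, 6 residual degrees of freedom), two-sided, with Benjamini-Hochberg adjustment over 11163 genes and a threshold of 0.05. The fit was tested on simulated data. The number of arrays, 3 per group, and the spread between them limit the precision. Besides CEACAM5 and CEACAM1, the genes named were all CEACAM and PSG genes, up to 4 per list with the smallest p in either treatment, the 5 nearest profiles, and tested genes within 5 places on the chromosome. The members and lists were chosen with earlier results of these data known. Array medians were 4.82 to 4.90, arrays of a group correlated at 0.991 or above, and 0 pairs of arrays were identical.

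Alternatives were cyclic loess, median centring, the mean of a gene's rows, other dim filters, fitting 6 arrays, no trend, a replicate block, all rows of the table and leaving out each array; the ranges of list counts over these were added after seeing the data.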

Additional observations from a re-analysis of the deposited data

How the results depend on the processing

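CEACAM5 and CEACAM1 kept their signs in all 14 settings, but no groups overlapped, so leaving out 1 array could not change them. That gave CEACAM5 2.66 to 3.06 (extract against untreated), 2.06 to 2.46 (carnosic acid against untreated) and 0.49 to 0.74 (extract against carnosic acid), and CEACAM1 -0.36 to -0.25, 0.25 to 0.37 and -0.66 to -0.56. Otherwise only loess and centring moved CEACAM5, to 2.77 to 2.85, 2.16 to 2.26 and 0.59 to 0.61, and CEACAM1, to -0.36 to -0.29, 0.26 to 0.35 and -0.63 to -0.62.

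Counts of called genes were 4256, 2123 and 1933 in the 3 comparisons, and leaving out 1 array gave 3493 to 4135, 1385 to 2037 and 1289 to 1965. The lowest carnosic acid count, 1385, came without carnosic acid replicate 1. Testing all rows of the table gave 7230 calls for the extract, more features having been tested.

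Deviations of same-numbered arrays from their group means correlated at -0.219 to 0.238 over the genes tested. No label says whether the numbers mark a shared culture or day, and this was not tested. With replicate number as a block there were 4226, 2194 and 1947 calls, the CEACAM5 and CEACAM1 differences were necessarily unchanged at 2.82, 2.22, 0.60, -0.31, 0.31 and -0.62, and CEACAM6 passed between extract and carnosic acid (adjusted p = 0.0262).

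All 62 tested genes that the naming rule picks were followed in all 3 comparisons. Of 41, 31 and 31 called, 35, 24 and 20 kept their call under all alternatives, and 0 changed sign. Each such gene follows with the settings in which it was lost, the arrays left out (RE extract, CA carnosic acid, UT untreated, with replicate numbers) and the highest adjusted p. For extract against untreated, 6 genes lost their call: CD1D (without RE 1/3, UT 2/3, up to 0.0895), CGAS (centring, no dim filter, without RE 1/2, UT 1/2/3, up to 0.158), ICMT (centring, no trend, without RE 1/2, UT 1/3, up to 0.113), PGAP3 (centring, 6 arrays, block, without RE 1, UT 1/2/3, up to 0.160), PGAP6 (loess, without RE 2, up to 0.0731) and PSG4 (loess, no dim filter, no trend, without RE 2/3, UT 1/2/3, up to 0.187). For carnosic acid against untreated, 7 genes lost their call: CD1D (loess, centring, no dim filter, without CA 1/3, UT 2/3, up to 0.148), CXCL17 (no dim filter, 6 arrays, without CA 1/3, UT 1/2, up to 0.168), HNRNPM (centring, no trend, up to 0.0694), ICMT (6 arrays, no trend, without CA 3, UT 1/2, up to 0.0894), PGAP6 (loess, 6 arrays, no trend, without CA 1/2/3, UT 1/2/3, up to 0.0923), SRSF3 (centring, no trend, without CA 1/2, UT 1/2, up to 0.104) and ULBP1 (without UT 2, up to 0.0504). For extract against carnosic acid, 11 genes lost their call: DMAC2 (centring, no dim filter, 6 arrays, no trend, block, without RE 2/3, CA 2/3, up to 0.148), IRF1 (without RE 1/2, CA 1/3, up to 0.133), KRT18 (mean of rows, no trend, without RE 1/2, CA 2/3, up to 0.116), LYZ (mean of rows, no trend, without RE 1/2, CA 3, up to 0.109), PGAP2 (without RE 1/2, CA 3, up to 0.0724), PTBP1 (no trend, up to 0.0553), RPS19 (no trend, without RE 2, CA 3, up to 0.0734), SHC1 (without RE 2, CA 2, up to 0.0821), SPP1 (no dim filter, 6 arrays, no trend, without RE 1/2, CA 2/3, up to 0.187), SRSF3 (without CA 3, up to 0.0568) and TLR4 (without RE 2, CA 3, up to 0.0560). Genes that were not called gained a call in 2, 4 and 2 cases. Signs changed in 49 values, all of genes that were not called, and the cause was not tested. With 1 array left out, the differences (log2) for extract against untreated ranged over CD8A -0.137 to 0.0523, CEACAM20 -0.159 to 0.0302, MPO -0.156 to 0.0926, PSG9 -0.0451 to 0.122 and S100A9 -0.0747 to 0.0961. With 1 array left out, the differences (log2) for carnosic acid against untreated ranged over AZU1 -0.101 to 0.00361, CD209 -0.167 to 0.0692, CD8A -0.0280 to 0.0692, CEACAM16 -0.140 to 0.0112, CNFN -0.0749 to 0.0639, MPO -0.205 to 0.0435 and TLR4 -0.0497 to 0.123. With 1 array left out, the differences (log2) for extract against carnosic acid ranged over AZU1 -0.0944 to 0.0102, CD14 -0.257 to 0.122, CD1D -0.138 to 0.0897, CD209 -0.175 to 0.0385, CD8A -0.159 to 0.0301, CEACAM16 -0.306 to 0.0243, CEACAM7 -0.0309 to 0.157, EPCAM -0.0115 to 0.0458, MPO -0.0397 to 0.124, PGAP6 -0.0258 to 0.0116, PSG4 -0.271 to 0.0856, PSG6 -0.274 to 0.0154, SRC -0.117 to 0.00782 and THY1 -0.0242 to 0.0205. Under cyclic loess they were CEACAM20 0.00830 (extract against untreated), CD209 0.0305 (carnosic acid against untreated), CEACAM16 0.00608 (carnosic acid against untreated), PGAP6 0.00329 (extract against carnosic acid) and THY1 -0.00892 (extract against carnosic acid). Under median centring they were CD209 0.00669 (carnosic acid against untreated), PTBP1 0.0169 (carnosic acid against untreated) and THY1 -0.00666 (extract against carnosic acid).

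With 3 arrays per group and RMA values, small differences such as those of CEACAM1 cannot be resolved finely, and a level near the dim limit cannot be told from background.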

Other observations

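Other surface antigens of colon epithelium and carcinoma changed in both directions: of 9 tested (of 22 listed), 5 fell and 2 rose with the extract, and 4 fell and 2 rose with carnosic acid. Over all genes 16.3% fell and 21.8% rose with the extract, and 6.12% fell and 12.9% rose with carnosic acid. TSPAN8, a tetraspanin, read 5.99, 5.80 and 5.60 with the extract, 6.78, 6.61 and 6.72 with carnosic acid, and 8.07, 7.68 and 8.06 in untreated cells. All 3 groups lay apart, and it fell by 2.14 with the extract (limma adjusted p = 1.74e-07) and fell by 1.23 with carnosic acid (limma adjusted p = 6.79e-05).

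PROM1, a pentaspan protein of membrane protrusions, fell by 1.54 with the extract (limma adjusted p = 1.39e-07) and fell by 0.81 with carnosic acid (limma adjusted p = 9.26e-05). CD44, a hyaluronan receptor, fell by 0.48 with carnosic acid (limma adjusted p = 0.0025) and also fell with the extract (limma adjusted p = 2.94e-06). CLDN7, a tight junction claudin, rose by 0.58 ± 0.06 with the extract (limma adjusted p = 7.42e-06) and by 0.31 ± 0.06 with carnosic acid (limma adjusted p = 0.0026).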
